A study of Mus musculus with 20 samples.

Results

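The polyamine pathway genes are 10 genes whose enzymes and regulators make, break down or control putrescine, spermidine and spermine: Odc1, Amd1, Srm, Sms, Smox, Sat1, Oaz1, Oaz2, Azin1 and Paox. They were chosen by symbol. Each of the 10 symbols matched 1 Ensembl row of the 56941 gene rows in the count table, and all 10 passed the filter on low counts. RNA came from the whole soleus, a hind-limb muscle rich in slow fibres, of C57BL/6J mice. In the exposed group, labelled space, 10 mice underwent hind-limb unloading for 14 days together with ionizing radiation and a stress hormone supplied in the diet. The 10 control mice were sham-irradiated and held in similar conditions. Hind-limb unloading lifts the hind legs off the floor and is used as a model of weightlessness. The exposures were given together, so what each one did cannot be told apart. The sources used here do not state the age of the mice, the radiation dose or which hormone was fed.

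Polyamines are small positively charged molecules that bind RNA and DNA and are needed for growth and translation. Ornithine decarboxylase (Odc1) makes putrescine from ornithine, S-adenosylmethionine decarboxylase (Amd1) provides the aminopropyl groups, and spermidine synthase (Srm) and spermine synthase (Sms) add them in turn. Antizymes (Oaz1, Oaz2) bind ornithine decarboxylase and send it to the proteasome, and the antizyme inhibitor (Azin1) holds them off. Breakdown runs through spermine oxidase (Smox) or through acetylation by Sat1 followed by oxidation by Paox. In mouse limb muscle, Smox and Odc1 have been studied as genes tied to fibre size, and Smox has been described as repressed in muscle atrophy.

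Library totals ran from 17336017 to 43424464 counts, and 16778 genes passed the filter. The muscle label was matched by high levels of the fibre markers Acta1, Ckm and 4 myosin heavy chains, whose summed level was 42692 to 55931 CPM in exposed libraries and 40131 to 48133 CPM in control libraries. CPM, the unit of all levels here, is the count scaled to a fixed library total, adjusted between libraries by the TMM method. Exposed replicates 1 to 4 stood apart: their summed level of 10 Schwann cell markers was 522 to 1517 CPM, against 96.2 to 185 CPM in exposed replicates 5 to 10 and 95.6 to 194 CPM in controls. All 10 of these markers were called higher over the 20 libraries, while without exposed replicates 1 to 4 only 5 were higher and 1, Pmp22, was lower. None was at 0 in any library. The summed level of 6 adipocyte markers was 151 to 365 CPM in exposed replicates 1 to 4, against 26.1 to 159 CPM in exposed replicates 5 to 10 and 25.2 to 179 CPM in controls. For the 10 pathway genes, and for each other gene described below whose call or size these 4 libraries changed by over 1.5 times, the value without them is given. In whole muscle, fewer cells of a type and less RNA per cell cannot be told apart.

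Odc1, at the start of synthesis, fell by about the same factor by which Paox, at the end of the breakdown route, rose, and both groups of libraries were fully separated for these genes. Amd1 and Smox also rose. The other 6 genes, Srm, Sms, Oaz1, Oaz2, Azin1 and Sat1, did not pass the test. Thus 3 of the 10 genes were higher and 1 was lower at a Benjamini-Hochberg adjusted p under 0.05 in edgeR's quasi-likelihood test over all genes, where 28.7% of all tested genes were higher, 28.9% were lower and 57.6% changed in either direction. The groups did not overlap for 2 of the 10 genes, against 17.4% of all tested genes. The median log2 fold change over the 10 genes was 0.02, the same as the 0.02 over all tested genes. The share of changed genes was thus no higher in this pathway than in the transcriptome at large. Among all changed genes 49.8% were higher. With library size as the only scaling this share was 61.3%, and 5946 of the 16778 tested genes were higher, against 4813. Under that scaling 5 of the 10 genes were higher, Sms and Oaz2 being added.

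**Figure D1:**
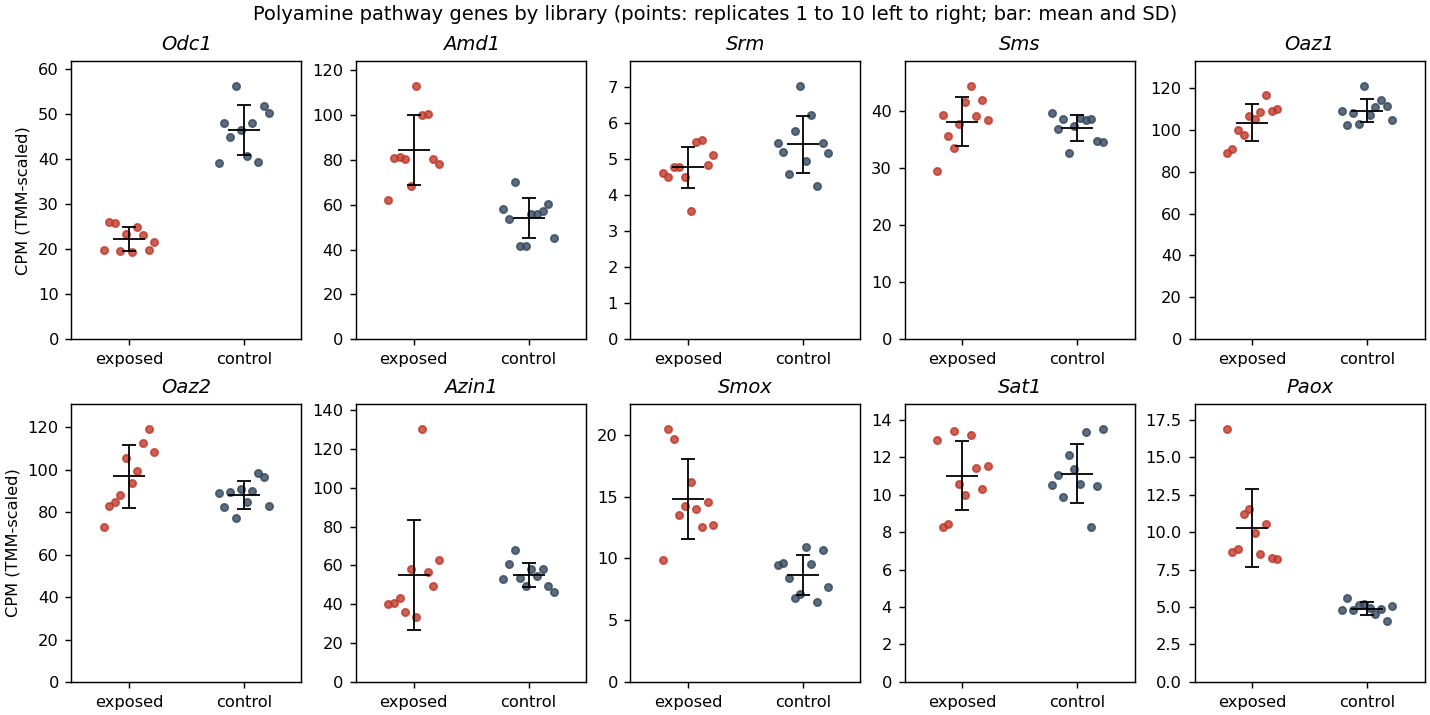
CPM of each polyamine pathway gene (vertical axes, from 0) in 10 exposed and 10 control libraries. Points are libraries in replicate order, and bars give the mean and SD. All exposed points lie below the controls for Odc1 and above them for Paox, and 1 exposed point of Azin1 stands at 130.3 CPM.

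The 250 bases before the transcript start of the 4 changed genes are shown because these genes carry the group difference. RefSeq windows on build GRCm38.p6 were found for 8 of the 10 genes, and the first window of each of the 4 is given 5′ to 3′. Capitals mark matches, on either strand, of 4 short motifs that can overlap each other. The GC box, which Sp1-type factors bind, was searched with the letters GGGCGG. The E-box, which Myc and its partner Max bind as a pair, was searched with the letters CACGTG. For the TATA box of core promoters the letters were TATAA. The remaining motif was the CCAAT box, known as the site of the factor NF-Y.
Odc1, chr12:17544623-17544872, + strand: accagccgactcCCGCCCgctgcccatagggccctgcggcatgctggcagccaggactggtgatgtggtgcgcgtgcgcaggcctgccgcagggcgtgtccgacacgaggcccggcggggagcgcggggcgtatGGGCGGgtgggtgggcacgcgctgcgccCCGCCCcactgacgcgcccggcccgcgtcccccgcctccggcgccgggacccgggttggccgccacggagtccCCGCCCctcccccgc
Amd1, chr10:40302189-40302438, - strand: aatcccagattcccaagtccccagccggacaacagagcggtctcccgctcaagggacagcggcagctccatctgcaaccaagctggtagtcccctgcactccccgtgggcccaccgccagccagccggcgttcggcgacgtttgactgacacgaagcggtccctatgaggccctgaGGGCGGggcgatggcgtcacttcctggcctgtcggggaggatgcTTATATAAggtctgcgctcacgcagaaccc
Smox, chr2:131491612-131491861, + strand: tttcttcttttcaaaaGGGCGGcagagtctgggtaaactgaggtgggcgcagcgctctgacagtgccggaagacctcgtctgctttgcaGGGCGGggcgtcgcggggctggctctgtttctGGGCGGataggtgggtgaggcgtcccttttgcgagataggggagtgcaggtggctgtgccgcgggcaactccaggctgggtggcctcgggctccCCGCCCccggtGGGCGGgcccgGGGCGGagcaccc
Paox, chr7:140125407-140125656, + strand: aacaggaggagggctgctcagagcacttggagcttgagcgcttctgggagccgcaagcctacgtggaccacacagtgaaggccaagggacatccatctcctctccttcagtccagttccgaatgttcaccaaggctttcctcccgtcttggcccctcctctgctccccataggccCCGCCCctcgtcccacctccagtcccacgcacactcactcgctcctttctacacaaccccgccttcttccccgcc
The GC box occurred 4 times in the Odc1 window, 6 times in the Smox window and once each in the Amd1 and Paox windows. It occurred in 8 of the 10 windows found for the pathway and in 32.7% of all 32851 windows of that length. Those 10 windows came from 8 genes, since Sms and Paox each had 2, and the 2 Paox windows overlap. The comparison was not matched for GC content, which ran from 47.2% in a window of Sms to 80.0% in the Odc1 window. TATAA was found in Amd1 alone among the 10 windows, on both strands at overlapping positions, against 22.8% of all windows. The E-box was found in 1 of the 10 windows, a window of Sms, against 6.02% of all. Windows end at the transcript start, so sites inside a gene or farther upstream, those of Odc1 included, were not searched. The CCAAT box was found in 2 of the 10 windows, a window of Sms and that of Oaz1, against 33.8% of all. No window of the pathway held the strict palindromic glucocorticoid response element, which 0.00913% of all windows held. These matches describe letters in a window and do not show that a factor binds there.

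Odc1 encodes the enzyme that commits ornithine to polyamine synthesis. Its lowest, median and highest levels were 19.5, 22.4 and 26.0 CPM in exposed libraries, against 39.1, 47.2 and 56.1 CPM in control libraries. Every exposed library lay below every control library. The means were 22.3 ± 2.66 CPM in exposed and 46.4 ± 5.58 CPM in control muscles (SD, n = 10 each), a 2.08-fold decrease (log2 fold change -1.05, SE 0.08; edgeR adjusted p = 1.61e-11). Among all tested genes, 6.41% had a larger absolute log2 fold change. Exposed replicates 1 to 4 ranged from 19.5 to 26.0 CPM and exposed replicates 5 to 10 from 19.5 to 24.8 CPM, so the fall was present in both sets. Without replicates 1 to 4 the log2 fold change was -1.07 (edgeR adjusted p = 7.9e-10).

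The antizymes, which turn ornithine decarboxylase over, were among the most abundant transcripts of the pathway and differed little between groups. Oaz1 averaged 103 ± 8.79 CPM in exposed and 109 ± 5.58 CPM in control libraries (SD, n = 10 each), with a log2 fold change of -0.08 (SE 0.05, edgeR adjusted p = 0.142). Exposed replicates 1 to 4 held 89.0 to 99.6 CPM of Oaz1, below the control range of 102 to 121 CPM, while exposed replicates 5 to 10 held 105 to 116 CPM, within it. Without replicates 1 to 4 the log2 fold change of Oaz1 was 0.01 (edgeR adjusted p = 0.858).

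Oaz2, the second antizyme, averaged 96.9 ± 14.7 CPM in exposed and 88.2 ± 6.61 CPM in control libraries (log2 fold change 0.13, SE 0.08; edgeR adjusted p = 0.116). Its exposed libraries split in the same way, with 73.2 to 88.3 CPM in replicates 1 to 4 and 93.9 to 119 CPM in replicates 5 to 10, against 77.2 to 98.7 CPM in controls. Without replicates 1 to 4, Oaz2 passed the test (log2 fold change 0.28, edgeR adjusted p = 0.000191), and leaving out exposed replicate 1 alone was enough for that (log2 fold change 0.17, edgeR adjusted p = 0.0244). The result for Oaz2 therefore rests on which exposed libraries are counted. The TMM factors of replicates 1 to 4 were 1.05 to 1.16, against 0.946 to 1.01 in replicates 5 to 10, and their Schwann marker levels were high as given above. The part of these in the split was not tested.

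Azin1, the inhibitor that frees ornithine decarboxylase from antizyme, had nearly equal means of 55.1 ± 28.2 CPM in exposed and 55.1 ± 6.38 CPM in control libraries (log2 fold change 0.00, SE 0.19; edgeR adjusted p = 0.997). Spread, however, was wider in exposed libraries. Exposed libraries had a lowest, median and highest level of 33.6, 46.5 and 130.3 CPM, against 46.4, 54.2 and 68.1 CPM in controls. Exposed replicate 7 alone stood at 130.3 CPM, the next exposed library at 62.7 CPM, and 5 exposed libraries lay below the lowest control. Without exposed replicate 7 the log2 fold change was -0.24 (edgeR adjusted p = 0.0655), still short of the threshold. Exposed replicates 1 to 4, at 35.9 to 43.3 CPM, all lay below the control range, and without them the log2 fold change was 0.25 (edgeR adjusted p = 0.348). The sign of the Azin1 difference thus depended on which exposed libraries were left out.

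Amd1 encodes the decarboxylase that supplies aminopropyl groups to both synthases. Its lowest, median and highest levels were 61.9, 80.6 and 113 CPM in exposed libraries, against 41.5, 55.8 and 70.3 CPM in control libraries. The ranges overlapped, with 8 of 10 exposed libraries above the highest control and 10 of 10 above the control mean. The means were 84.4 ± 15.5 CPM in exposed and 53.9 ± 8.94 CPM in control muscles (SD, n = 10 each), 1.56-fold higher in exposed muscles (log2 fold change 0.64, SE 0.11; edgeR adjusted p = 3.09e-05). Without exposed replicates 1 to 4 the log2 fold change was 0.74 (edgeR adjusted p = 9.29e-05). Odc1 and Amd1, the decarboxylases of the pathway, thus moved in opposite directions.

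The aminopropyl transferases did not pass the test over the 20 libraries. Srm, which makes spermidine, was a low transcript with 4.78 ± 0.56 CPM in exposed and 5.42 ± 0.80 CPM in control libraries (log2 fold change -0.18, SE 0.09; edgeR adjusted p = 0.085). It passed the test as lower only when control replicate 8 was left out, among the alternatives run (log2 fold change -0.21, edgeR adjusted p = 0.036). Without exposed replicates 1 to 4 the log2 fold change of Srm was -0.15 (edgeR adjusted p = 0.266). Sms, which makes spermine, averaged 38.2 ± 4.32 CPM in exposed and 37.1 ± 2.29 CPM in control libraries (log2 fold change 0.04, SE 0.06; edgeR adjusted p = 0.567). Its lowest exposed library was replicate 1 at 29.6 CPM, and exposed replicates 5 to 10 held 37.9 to 44.4 CPM, against 32.7 to 39.7 CPM in controls. Without replicates 1 to 4 Sms passed the test at a small difference (log2 fold change 0.14, edgeR adjusted p = 0.0199).

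On the side of breakdown, both oxidases rose, and the acetyltransferase did not pass the test. Smox encodes the oxidase that turns spermine straight back to spermidine. Its lowest, median and highest levels were 9.89, 14.1 and 20.5 CPM in exposed libraries, against 6.45, 8.93 and 10.9 CPM in control libraries. Exposed replicate 1 alone lay within the control range, and the other 9 lay above it. The means were 14.8 ± 3.24 CPM in exposed and 8.66 ± 1.61 CPM in control muscles (SD, n = 10 each), 1.71-fold higher in exposed muscles (log2 fold change 0.77, SE 0.13; edgeR adjusted p = 1.39e-05). Without exposed replicates 1 to 4 the log2 fold change was 0.71 (edgeR adjusted p = 8.44e-06).

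Paox encodes the oxidase that acts on acetylated spermine and spermidine. Its lowest, median and highest levels were 8.20, 9.41 and 16.9 CPM in exposed libraries, against 4.05, 4.92 and 5.60 CPM in control libraries. The groups did not overlap. The means were 10.3 ± 2.63 CPM in exposed and 4.90 ± 0.41 CPM in control muscles (SD, n = 10 each), 2.09-fold higher in exposed muscles (log2 fold change 1.07, SE 0.11; edgeR adjusted p = 1.1e-08). Here 6.28% of all tested genes had a larger absolute log2 fold change. The highest value belonged to exposed replicate 1. Without exposed replicates 1 to 4 the log2 fold change was 0.96 (edgeR adjusted p = 3.96e-09). The exons of Paox overlap those of Echs1, a gene of fatty acid oxidation on the opposite strand, by 142 bases in GENCODE M21. Echs1 fell to 81.8 ± 8.00 CPM in exposed libraries, against 99.5 ± 10.0 CPM in control libraries (edgeR adjusted p = 0.000309), the direction opposite to Paox. Whether the counting used strand is unknown here, so reads of these bases cannot be assigned with certainty.

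Sat1, the acetyltransferase that feeds Paox, averaged 11.0 ± 1.84 CPM in exposed and 11.1 ± 1.57 CPM in control libraries (log2 fold change -0.01, SE 0.10; edgeR adjusted p = 0.912). Its exposed range of 8.29 to 13.4 CPM lay almost wholly on the control range of 8.29 to 13.5 CPM. The log2 fold change ranged from -0.06 to 0.07 over the 33 alternatives, and was 0.02 without exposed replicates 1 to 4 (edgeR adjusted p = 0.90).

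**Figure D2:**
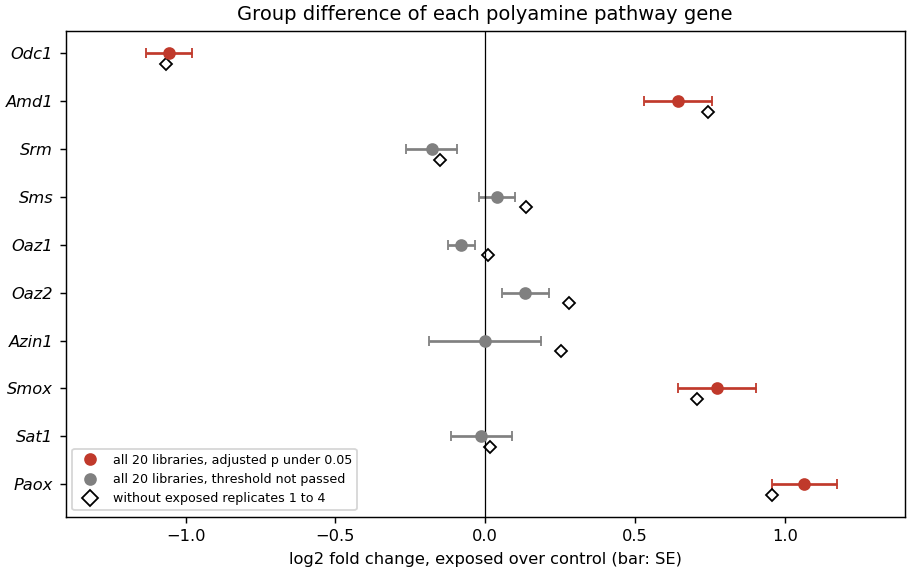
log2 fold change of each gene, exposed over control (horizontal axis), with the SE as a bar. Red points passed the test and grey points did not, and open diamonds give the value without exposed replicates 1 to 4. Odc1 stands at -1.05 and Paox at 1.07, and the diamonds of Sms, Oaz2 and Azin1 lie right of their points.

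**Figure D3:**
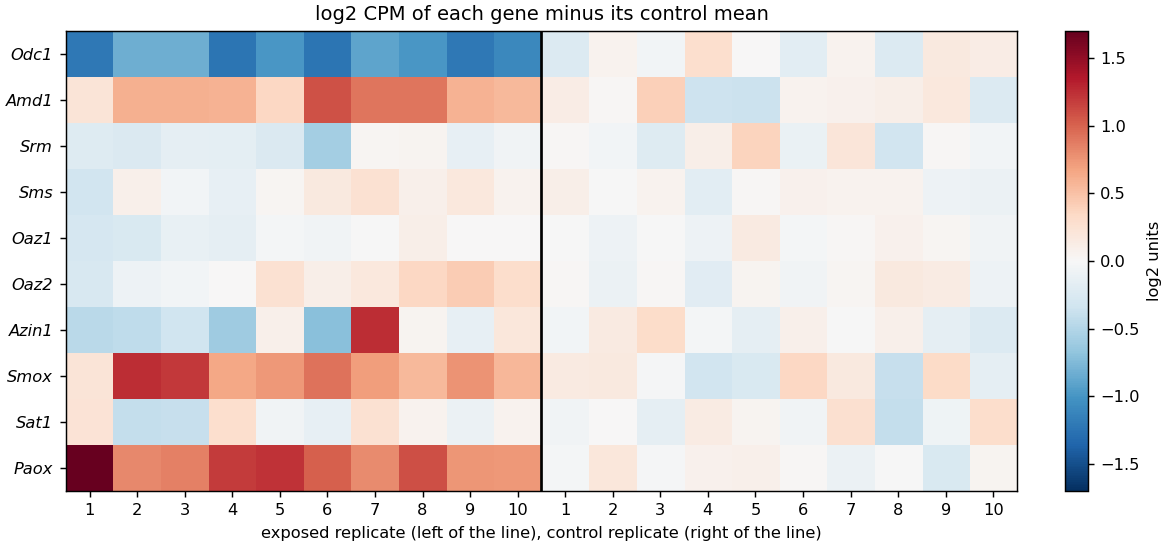
log2 CPM of each gene minus its control mean, by library, with exposed replicates left of the line and controls right of it. Odc1 is blue in all 10 exposed libraries and Paox red in all 10, while Oaz1, Oaz2 and Azin1 are lower in exposed replicates 1 to 4 than in most of replicates 5 to 10.

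Some of the other cell markers moved with the groups too, where 28.7% of all tested genes were higher and 28.9% lower. Of 7 macrophage markers 1 was higher and 6 were not called. Among 6 blood cell markers and 5 tested adipocyte markers, 0 were called. The summed level of 7 fibroblast markers was 504 to 803 CPM in exposed libraries and 713 to 1774 CPM in controls, with 2 higher and 4 lower. The summed level of 7 endothelial markers was 351 to 424 CPM in exposed libraries and 394 to 506 CPM in controls, with 3 lower and 4 not called. All 6 fibre markers changed without overlap between the groups, against 17.4% of all tested genes, and the shifts between myosin heavy chains were large. Myh4 was 20.9-fold and Myh1 4.19-fold higher in exposed libraries, and Ckm was 2.21-fold higher. Myh2 was 31.2-fold, Myh7 2.19-fold and Acta1 2.14-fold lower. Of 4 satellite cell markers, Pax7 (log2 fold change 0.29) and Myf5 (0.26) were higher, and without exposed replicates 1 to 4 their log2 fold changes were 0.38 for Pax7 and 0.42 for Myf5. Calcr (log2 fold change -0.01, edgeR adjusted p = 0.952) and Chodl (-0.16, edgeR adjusted p = 0.302) did not pass the test. The summed level of the 4 overlapped between groups, at 17.1 to 30.0 CPM in exposed libraries and 20.3 to 29.2 CPM in controls. No marker of these lists was at 0 in any library. Their part in the changes of Odc1, Amd1, Smox and Paox was not tested.

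Levels can be compared between genes only per length of exon. Per kilobase of exon in GENCODE M21, control libraries held 42.6 CPM of Oaz1 and 29.5 CPM of Oaz2, then 15.2 CPM of Amd1, 13.6 CPM of Odc1, 8.81 CPM of Azin1 and 6.17 CPM of Sms. Sat1 stood at 4.00, Srm at 3.39, Smox at 2.22 and Paox at 1.00 CPM per kilobase in controls. In exposed libraries the level per kilobase was 23.8 CPM for Amd1 and 6.56 CPM for Odc1, so that Odc1 lay close to Sms at 6.35 CPM. Smox stood at 3.79 and Paox at 2.09 CPM per kilobase in exposed libraries. As counted, the antizymes were the most abundant by mean in both groups and Paox the least. Reads shared with copies of these genes, described below, could alter this order if they were dropped at counting. Over the control libraries, neighbours in this order overlapped for Amd1 and Odc1, Sat1 and Srm, and Srm and Smox, and not otherwise. Over the exposed libraries all neighbours overlapped except Sms and Sat1.

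Several of these genes have near copies in the genome, which bears on how surely reads were assigned. Of the stretches of 100 bases in the longest coding transcript of Amd1, 76.4% occur unchanged in transcripts of other genes, mostly in Amd2, a near copy. The share was 41.8% for Oaz1, 27.7% for Sms, 25.4% for Paox, 19.6% for Odc1 and 0% for Smox and Srm. The copies themselves held few reads. Amd2 had 81 reads over the 10 exposed and 53 over the 10 control libraries, which with the Amd pseudogenes came to 0.667% of the reads of Amd1. Counts of Amd1, Oaz1, Sms, Paox and Odc1 are uncertain to the extent that shared reads were dropped or split, which the sources used here do not give. Oaz1-ps had 159 reads over the exposed and 143 over the control libraries, Sms-ps had 47 over the exposed and 44 over the control libraries, and Oaz2-ps had 18 over the exposed and 19 over the control libraries. An antisense gene over Azin1, Gm49077, had 40 reads over the exposed and 24 over the control libraries. Summing each gene with every gene that shares at least 20 such stretches, an alternative chosen after seeing the data, left the same 3 genes higher and the same 1 lower. The summed copies held from 0.0645% (Oaz2) to 0.667% (Amd1) of a gene's reads, so the sum could hardly change a call. It also cannot restore reads dropped at counting, and so does not settle that uncertainty.

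Covariation among the 10 genes was examined within the control libraries, where no group difference enters. Of 45 pairs, 1 passed the threshold by Pearson's r. Odc1 and Sms varied inversely over the 10 controls (r = -0.89, permutation p = 0.00042, adjusted p = 0.0189; Spearman's rho = -0.96, permutation p = 2e-05, adjusted p = 0.0009), and r was -0.89 without the 2 libraries farthest from the median of Odc1. Oaz1 and Oaz2 varied together by rank (rho = 0.94, permutation p = 0.00014, adjusted p = 0.00315) but did not pass by r (r = 0.77, permutation p = 0.00892, adjusted p = 0.201). With library size alone as the scaling, no pair passed, and r was -0.83 for Odc1 and Sms (permutation p = 0.00391, adjusted p = 0.128). The spread behind these relations is small, since Sms ranged from 32.7 to 39.7 CPM over the controls, and no batch is given in the labels.

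**Figure D4:**
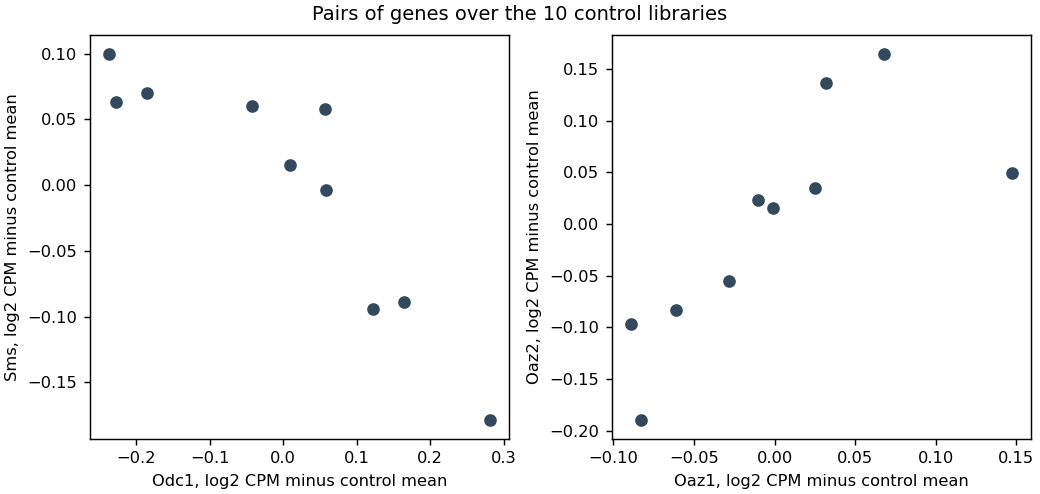
log2 CPM minus the control mean of Odc1 against Sms (left) and of Oaz1 against Oaz2 (right) in the 10 control libraries. Each point is a library. Sms falls as Odc1 rises, and Oaz2 rises with Oaz1.

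The genes that feed, use or move polyamines were then read from lists of textbook roles. Of 54 genes listed, 42 passed the filter, and of these 18 were higher and 14 lower, with a median log2 fold change of 0.08 against 0.02 over all tested genes. The 28.7% higher, 28.9% lower and 57.6% changed over all tested genes are the background for this count and for those of the single lists. Without exposed replicates 1 to 4, counts in each of these lists moved by at most 1 gene in each direction, though not always with the same genes.

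Ornithine, the substrate of Odc1, is handled by several enzymes that moved in opposite ways. Of 7 tested genes of arginine and ornithine supply, 2 were higher and 3 lower, against 28.7% and 28.9% of all tested genes. Oat, ornithine aminotransferase, averaged 131 ± 17.4 CPM in exposed and 86.2 ± 6.06 CPM in control libraries, with no overlap (log2 fold change 0.61, edgeR adjusted p = 1.96e-08). Aldh18a1, which makes the glutamate semialdehyde shared by proline and ornithine synthesis, averaged 2.71 ± 0.51 CPM in exposed and 5.14 ± 0.66 CPM in control libraries, also with no overlap (log2 fold change -0.93, edgeR adjusted p = 3.87e-08). Gatm, which uses arginine for creatine synthesis and releases ornithine, was higher (log2 fold change 1.53, edgeR adjusted p = 0.00264), but this rested on exposed replicates 1 to 4, at 15.3 to 35.0 CPM against 5.01 to 7.37 CPM in replicates 5 to 10 and 3.36 to 7.18 CPM in controls, and without them the log2 fold change was 0.31 (edgeR adjusted p = 0.0645). Ass1, argininosuccinate synthase, was higher in their absence (log2 fold change 0.25, edgeR adjusted p = 0.024) and did not pass over all 20 libraries (edgeR adjusted p = 0.0658). The arginases were barely detected: Arg1 had 6 reads over the exposed and 4 over the control libraries, and Arg2 had 15 over the exposed and 5 over the control libraries.

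The methionine cycle supplies the S-adenosylmethionine that Amd1 uses, and a salvage route recovers the methylthioadenosine left by Srm and Sms. Of 13 tested genes, 5 were higher and 4 lower, where 57.6% of all tested genes changed. Ahcy, which hydrolyses S-adenosylhomocysteine, averaged 29.9 ± 3.02 CPM in exposed and 13.7 ± 1.07 CPM in control libraries (log2 fold change 1.13, edgeR adjusted p = 5.21e-14). Methionine synthase, Mtr, averaged 75.6 ± 7.47 CPM in exposed and 44.9 ± 1.08 CPM in control libraries (log2 fold change 0.75, edgeR adjusted p = 2.93e-12). Mtap, the first enzyme of salvage, averaged 5.78 ± 0.60 CPM in exposed and 3.83 ± 0.43 CPM in control libraries (log2 fold change 0.58, edgeR adjusted p = 5.27e-07). For these 3 genes, which were named for their small p, the groups did not overlap, against 17.4% of all tested genes. Mat2b, the regulatory subunit of the S-adenosylmethionine synthetase, was lower without overlap, at 43.0 ± 3.11 CPM in exposed and 57.2 ± 6.30 CPM in control libraries (log2 fold change -0.41, edgeR adjusted p = 8.7e-07). Mat2a, the catalytic subunit, was higher with overlap, at 147 ± 19.8 CPM in exposed and 112 ± 6.83 CPM in control libraries (log2 fold change 0.39, edgeR adjusted p = 1.34e-05).

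Spermidine is also the donor for hypusine, a modified lysine found in the translation factor eIF5A. Of 4 tested genes, 1 was higher and 2 lower. Eif5a averaged 170 ± 7.84 CPM in exposed and 193 ± 7.58 CPM in control libraries, without overlap (log2 fold change -0.19, edgeR adjusted p = 5.33e-05). Eif5a2, its paralogue, was higher at a low level of 3.23 ± 0.65 CPM in exposed and 2.29 ± 0.42 CPM in control libraries (log2 fold change 0.49, edgeR adjusted p = 0.00141). Dohh, which completes hypusine, was lower by a small margin (log2 fold change -0.17, edgeR adjusted p = 0.044), a call lost in 19 of the 33 alternatives, among them leaving out exposed replicates 1 to 4 (log2 fold change -0.10, edgeR adjusted p = 0.322).

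Among 8 tested transporters of polyamines and basic amino acids, 5 were higher and 2 lower, against 28.7% and 28.9% of all tested genes. Slc22a2, a listed transporter, fell below the filter, with 23 reads over the exposed and 177 over the control libraries and at most 35 in a library. Without exposed replicates 1 to 4 it passed the filter and was lower (log2 fold change -4.07, edgeR adjusted p = 2.3e-07), a size that rests on few reads. Slc47a1, a cation exporter of the MATE family, averaged 15.0 ± 2.98 CPM in exposed and 28.7 ± 1.82 CPM in control libraries, without overlap (log2 fold change -0.94, edgeR adjusted p = 3.86e-09). Atp13a2, the lysosomal pump that releases spermine into the cytosol, averaged 21.4 ± 1.58 CPM in exposed and 15.6 ± 0.75 CPM in control libraries, also without overlap (log2 fold change 0.46, edgeR adjusted p = 4.72e-09). The cationic amino acid carrier Slc7a1 was lower (log2 fold change -0.50, edgeR adjusted p = 5.39e-05), and Slc3a2, the heavy chain of several amino acid transporters, was higher (log2 fold change 0.36, edgeR adjusted p = 0.000147). Slc3a2 stood at 20.9 to 26.8 CPM in exposed replicates 1 to 4, against 15.9 to 20.3 CPM in exposed replicates 5 to 10, and without replicates 1 to 4 its log2 fold change was 0.22 (edgeR adjusted p = 0.00249).

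Of 4 tested genes on the route by which putrescine becomes GABA and is broken down further, 1 was higher and 3 were lower, where 57.6% of all tested genes changed. Maob, a monoamine oxidase that acts on acetylputrescine, averaged 30.7 ± 3.90 CPM in exposed and 20.4 ± 1.87 CPM in control libraries, without overlap (log2 fold change 0.59, edgeR adjusted p = 5.95e-08). Aldh9a1, the aldehyde dehydrogenase that forms GABA, was lower (log2 fold change -0.63, edgeR adjusted p = 0.000636). Abat, the GABA transaminase, was lower (log2 fold change -0.36, edgeR adjusted p = 0.000745), as was Aldh5a1, the next enzyme (log2 fold change -0.15, edgeR adjusted p = 0.00741). The fall of Aldh5a1 was lost under 3 alternatives, which were upper-quartile factors (adjusted p = 0.0984), library size without further scaling (adjusted p = 0.262) and a test against a fold of 1.2.

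**Figure D5:**
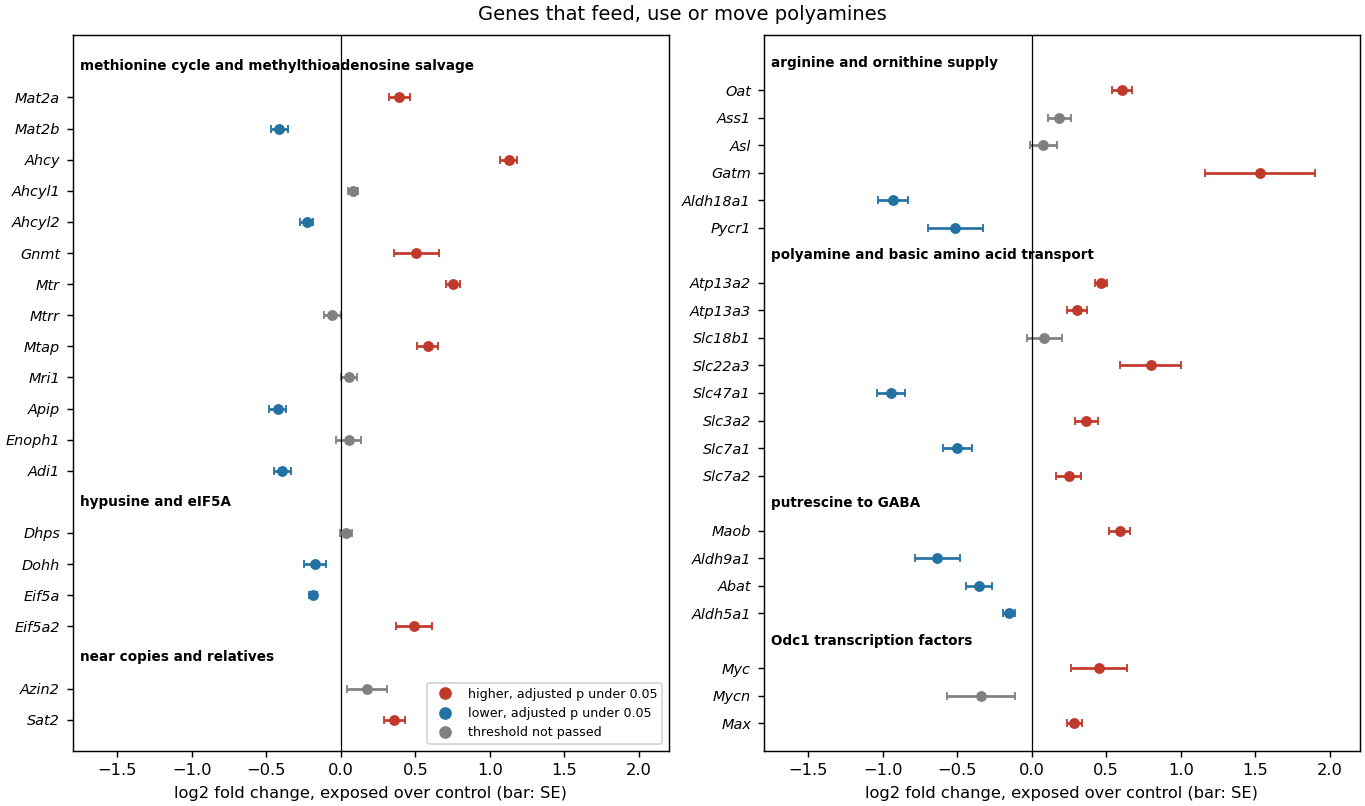
log2 fold change of the genes that feed, use or move polyamines, exposed over control (horizontal axes), with the SE as a bar, grouped by role; 2 genes counted in the text are not drawn. Red points were higher, blue points lower, and grey points did not pass the test. Gatm at 1.53 and Ahcy at 1.13 are the farthest to the right, and Slc47a1 and Aldh18a1 the farthest to the left.

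Among transcription factors known to act on Odc1, Myc and Max were higher while Odc1 was lower. Mycn did not pass over all 20 libraries and was lower without exposed replicates 1 to 4 (log2 fold change -0.67, edgeR adjusted p = 0.0453). Max, the partner of Myc, was higher (log2 fold change 0.28, edgeR adjusted p = 3.78e-05). Myc itself was higher at a low level of 6.23 ± 1.59 CPM in exposed and 4.55 ± 1.34 CPM in control libraries (log2 fold change 0.45, edgeR adjusted p = 0.0311), a call lost in 8 of the 33 alternatives, among them leaving out exposed replicates 7 or 8 or control replicates 6, 8, 9 or 10 in turn.

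Relatives of the 10 genes were weakly expressed. Sat2, a paralogue of Sat1, was higher at 3.14 ± 0.27 CPM in exposed and 2.44 ± 0.31 CPM in control libraries (log2 fold change 0.36, edgeR adjusted p = 0.000956). Azin2, the second antizyme inhibitor, stood at 1.49 ± 0.26 CPM in exposed and 1.34 ± 0.38 CPM in control libraries (edgeR adjusted p = 0.307). Oaz3, the testis antizyme, had 14 reads over the exposed and 15 over the control libraries, and Satl1 and Aoc1 had no read in any of the 20 libraries. At 95% confidence, that allows for an expected count of up to 3 reads of each gene over the 20 libraries together.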

How the data were processed

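RNA was sequenced from 20 soleus muscles as paired-end libraries made from 90 ng of total RNA after ribosomal RNA depletion, per the labels' protocols. The authors deposited a table of unnormalized whole-number counts, 1 row per Ensembl gene. MultiQC 1.15, Subread, featureCounts 1.5.1, edgeR and build GRCm39 are named in the submitters' processing notes. Their roles, the use of strand and the treatment of reads shared between genes are unknown here. Library codes were matched to sample descriptions, and groups were taken from titles.

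Symbols came from a reference table of Ensembl IDs and matched 51948 of 56941 rows; exon lengths, overlaps and shared stretches came from GENCODE M21 on GRCm38. The statistics used edgeR 4.0.16 under R 4.3.3, with filterByExpr (minimum count 10, minimum total 15), TMM scaling, robust quasi-likelihood fits without covariates, and Benjamini-Hochberg adjustment over 16778 genes with a threshold of 0.05. The test was checked on simulated data in which far fewer genes changed than here, which leaves the scaling unchecked for changes this wide. SEs are of the difference of mean log2 CPM (prior count 2). Pairs of genes were tested with 100000 permutations, 2-sided. Promoter sequences are from RefSeq. Each replicate is a mouse, per the series' design text. Over the 190 pairs of libraries the chi-square per gene was at least 9.67, far above sampling noise, and no library was counted as a duplicate.

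The genes and lists were chosen with earlier results of these data known. Named genes are every member, up to 4 changed genes of each related list by smallest p, and relatives. Some others, such as Mat2a, Ass1 and Mycn, are named beside them. Results for 2 of the related genes are not reported here. Alternatives were DESeq2 1.42.0 size factors and test, upper-quartile factors, library size alone, limma 3.58.1 voom with quality weights, other filters, dominant genes left out, a replicate block, a fold threshold of 1.2, libraries left out, and counts summed with near copies.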

Additional observations from a re-analysis of the deposited data

Results flagged for a closer look

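Over 20 gene and group combinations, 3 had a library far from the rest by Dixon's criterion, which chance alone meets in about 1 in 20. Azin1 stood at 130.3 CPM in exposed replicate 7, against 62.7 CPM in the next library. Paox stood at 16.9 CPM in exposed replicate 1, against 11.6 CPM in the next. Srm stood at 3.56 CPM in exposed replicate 6, the lowest, against 4.51 CPM in the next.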

How the results depend on the processing

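Odc1, Amd1, Smox and Paox kept their direction and passed the threshold in all 33 alternatives. Their log2 fold changes ranged from -1.08 to -0.97 for Odc1, 0.59 to 0.74 for Amd1, 0.71 to 0.85 for Smox and 0.95 to 1.16 for Paox. Azin1, Oaz1 and Sat1 passed in none. With library size alone, 5 of the 10 genes were higher, Oaz2 (log2 fold change 0.21) and Sms (0.11) being added, and the share of higher genes among all calls was 61.3% against 49.8%. Over all 16778 tested genes, 5946 were then higher and 3756 lower, against 4813 and 4850 with TMM scaling. Without exposed replicates 1 to 4, 5 were higher, with the same additions, and 1 was lower. In that setting 25.2% of all tested genes were higher and 26.1% lower. Upper-quartile scaling added Oaz2 (log2 fold change 0.19, edgeR adjusted p = 0.0234), and 5840 of all 16778 tested genes were then higher, 58.8% of calls. Leaving out a library in turn gave 3 to 4 higher and 1 to 2 lower, Srm being the second lower one without control replicate 8. Against a fold of 1.2 (edgeR glmTreat), the 4 calls stood, while related genes went to 11 higher and 7 lower. All genes went to 4864 calls, 2380 higher and 2484 lower, against 9663 calls, 4813 higher and 4850 lower. That test asks for a larger change. Eif5a, Dohh, Sat2, Max, Myc, Slc3a2, Abat and Aldh5a1 were among the related genes that it no longer called. The number of pairs in controls that passed was 0 with library size alone, against 1; the cause was not tested. With the sample number as a replicate block, 3 genes were higher and 1 lower, 18 related genes were higher and 13 lower, and 9470 genes were called. Same-numbered libraries did not deviate together (r from -0.13 to 0.10 over 10 pairs, none over 0.1), and no exposed library correlated best with its own number. These values gave no sign that the numbers pair the samples, but they cannot exclude a pairing by design. Depth limits the genes below the filter, such as the arginases and Slc22a2, which were not tested in the main fit.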
